A study of Macaca mulatta with 26 samples.

Results

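The pineal gland of rhesus macaques killed at mid-day was compared with that of animals killed at dawn, using 3 libraries labelled Pineal Day and 3 labelled Pineal Dawn out of 26 libraries in the series. These 6 were chosen by their labels alone. Mid-day animals were killed between 1100 and 1300 and dawn animals between 0500 and 0700, a window that spans lights-on at 0600. All were adult Macaca mulatta of 3 to 33 years, male and female, obtained over 11 years, with no genetic change or drug treatment named in the labels. They were housed for at least 6 weeks in 12 h of light and 12 h of dark at about 325 lux. Per the labels, 3 animals were killed at each time and RNA came from individual glands, so the groups hold different animals and the p-values measure the spread between animals. Pineal libraries taken at dusk and midnight, 6 in all, shared the estimate of spread, and 6 retina libraries from mid-day and dawn gave the comparison between tissues.

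The pineal gland makes melatonin from serotonin at night, when sympathetic nerves release noradrenaline onto pinealocytes and raise cyclic AMP. Pinealocytes are related to retinal photoreceptors and express many of the same proteins: opsins activate transducins, transducins activate the phosphodiesterase PDE6, and falling cyclic GMP closes cation channels, while guanylate cyclases and their calcium-sensing activators restore cyclic GMP. In rodents the nightly rise of melatonin follows transcription of the acetyltransferase gene AANAT, whereas in primates and ungulates the enzyme is controlled largely after transcription. Mid-day falls well into the light phase, and the dawn window spans its start. The comparison thus asks how pineal transcripts differ between the turn from dark to light and the middle of the day.

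Reads assigned to genes numbered 12.07 to 13.88 M per mid-day library and 12.28 to 13.07 M per dawn library. The pinealocyte markers TPH1 and CRX were high at both times. TPH1 was at 502 to 817 FPKM (fragments scaled to gene length and library size) at mid-day and 431 to 635 at dawn, and CRX at 157 to 201 and 170 to 182 (mid-day and dawn in that order). ISL1 alone of the 13 pinealocyte markers did not pass the filter on low values, at no more than 0.466 FPKM in any of the 6. CNGA3, also on that list, passed the filter but was low at both times, with its values given below. XIST, transcribed from the inactive X chromosome, was at 42.6, 47.8 and 51.9 FPKM in the mid-day libraries and at 0.127, 40.4 and 0.0852 in the dawn libraries, while the Y-linked EIF1AY was at 27.3 and 28.1 FPKM in dawn 1 and 3 and at 0.451 or less in the other 4 libraries. Sex by these genes is thus nearly confounded with time. Values of a fit with an indicator for it are given beside the calls. XIST was above EIF1AY in 1 of 3 pineal and 0 of 3 retina libraries at dawn, in 3 and 1 at mid-day, in 2 and 3 at dusk and in 1 and 1 at midnight (pineal gland, then retina). Both tissues are described as coming from the same animals, 3 at each time, and these counts differ between tissues at dawn, mid-day and dusk, so the pineal and retina libraries of those times cannot all come from the same 3 animals. No label ties a retina library to a pineal one, and the comparison between tissues treats them as separate.

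Of 19110 genes tested with limma on log2(FPKM + 0.5), 6 were called at an adjusted p under 0.05 (0.0314%), 4 higher at mid-day (0.0209%) and 2 lower (0.0105%). The unadjusted p was under 0.05 in 2602 genes (13.6%), with 955.5 as the number that chance alone would give. The count of calls was 2 without mid-day 1, 3 without mid-day 2, 186 without mid-day 3, 10 without dawn 1 and 2 with an indicator of high XIST in the fit. In 1928 genes all 3 mid-day libraries lay above all 3 dawn libraries (10.1%) and in 1141 they all lay below (5.97%). The gene with the smallest p was ADAMTS16, a secreted metalloprotease. It was at 6.65, 8.48 and 4.89 FPKM at mid-day against 0.0542, 0.2 and 0.0269 at dawn. Every mid-day library thus held it at several FPKM, and every dawn library was close to 0. Means were 6.67 ± 1.79 FPKM at mid-day and 0.0938 ± 0.0933 at dawn (SD, n = 3 each), a ratio of 71.1. The log2 difference was 3.57 ± 0.26 (SE, limma adjusted p = 0.000804). It rested on 1429 reads at mid-day and 20 at dawn. In the dusk and midnight libraries ADAMTS16 stayed between 0.0229 and 0.183 FPKM. It kept its call without each of the 6 libraries in turn, with limma adjusted p from 0.00155 to 0.0156, and with the XIST indicator in the fit (0.0136). Only its 3 mid-day libraries reached 1 FPKM, so it passed the filter on low values through the group where it is high. The fits that left out a library kept that same filter, so they are no test of this selection.

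AIPL1 encodes a chaperone that photoreceptors need to assemble the phosphodiesterase PDE6. It was at 30.7, 40.2 and 27.9 FPKM at mid-day against 13.3, 11.9 and 8.26 at dawn, with no overlap. Its level rose at mid-day by a log2 difference of 1.53 ± 0.18 (SE, limma adjusted p = 0.0203, means 32.9 ± 6.45 and 11.2 ± 2.59 FPKM at mid-day and dawn, SD, n = 3 each). At dusk it was as high as at mid-day, at 32.8 to 36.3 FPKM, and at midnight it lay between, at 17.3 to 21.7. The call was lost without mid-day 1, mid-day 2 or dawn 2 (limma adjusted p up to 0.0909) and with the XIST indicator (0.101), while the log2 difference stayed at 1.34 or above under every setting run.

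C4orf26, known for a phosphoprotein of the tooth enamel matrix, was the most reduced of the called genes. It was at 2.15, 0.688 and 1.54 FPKM at mid-day against 20.5, 17.0 and 20.3 at dawn. The dawn values lay close together and all far above the mid-day ones. The mean was 13.2 times higher at dawn, and the mid-day minus dawn log2 difference was -3.40 ± 0.41 (SE, limma adjusted p = 0.0238). Dusk libraries were at 2.28 to 9.61 FPKM and midnight libraries at 10.9 to 14.0. The uncharacterised transcript RP11-137H2.6 was at 10.4, 9.46 and 11.1 FPKM at mid-day against 23.0, 23.1 and 24.9 at dawn, a log2 difference of -1.16 ± 0.15 (SE, limma adjusted p = 0.0316). At dusk and midnight it was at 19.9 to 30.5 FPKM, so the mid-day libraries were the 3 lowest of the 12. Both lower genes lost their calls without any 1 of mid-day 1, mid-day 2, dawn 1, dawn 2 or dawn 3 (limma adjusted p up to 0.156 for C4orf26 and 0.168 for RP11-137H2.6), and with the XIST indicator (0.104 and 0.101).

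The remaining calls rested on very few reads. MIR4664, a microRNA gene, was at 3.47, 4.67 and 2.03 FPKM at mid-day and listed at 0 in the 3 dawn libraries, which came to 9 reads at mid-day and 0 at dawn. Taking 3 reads as the most that 0 over the dawn group allows, and the 9 mid-day reads as exact, the ratio was 3.01 (limma adjusted p = 0.00461). The counting error of the 9 reads is not in that ratio, so the true fold may be lower. Without mid-day 1 the limma adjusted p was 0.0514, and with the XIST indicator it was 0.0582. AP001925.1 had 1 read in each mid-day library, 3 in all, and 0 reads in the other 9 pineal libraries. Its call (limma adjusted p = 0.00273) was kept with the XIST indicator (0.0367) but lies at the counting floor, so no fold is given. Over all settings run its limma adjusted p reached 0.224. AP001925.1 passed the filter only through the mid-day libraries, so its separation from the other times is no separate support for the call. The fitted differences of both depend on the constant added before the logarithm. With voom on the whole reads recovered from the FPKM values, 3 genes were called, and the adjusted p of MIR4664 was 0.122.

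**Figure D1:**
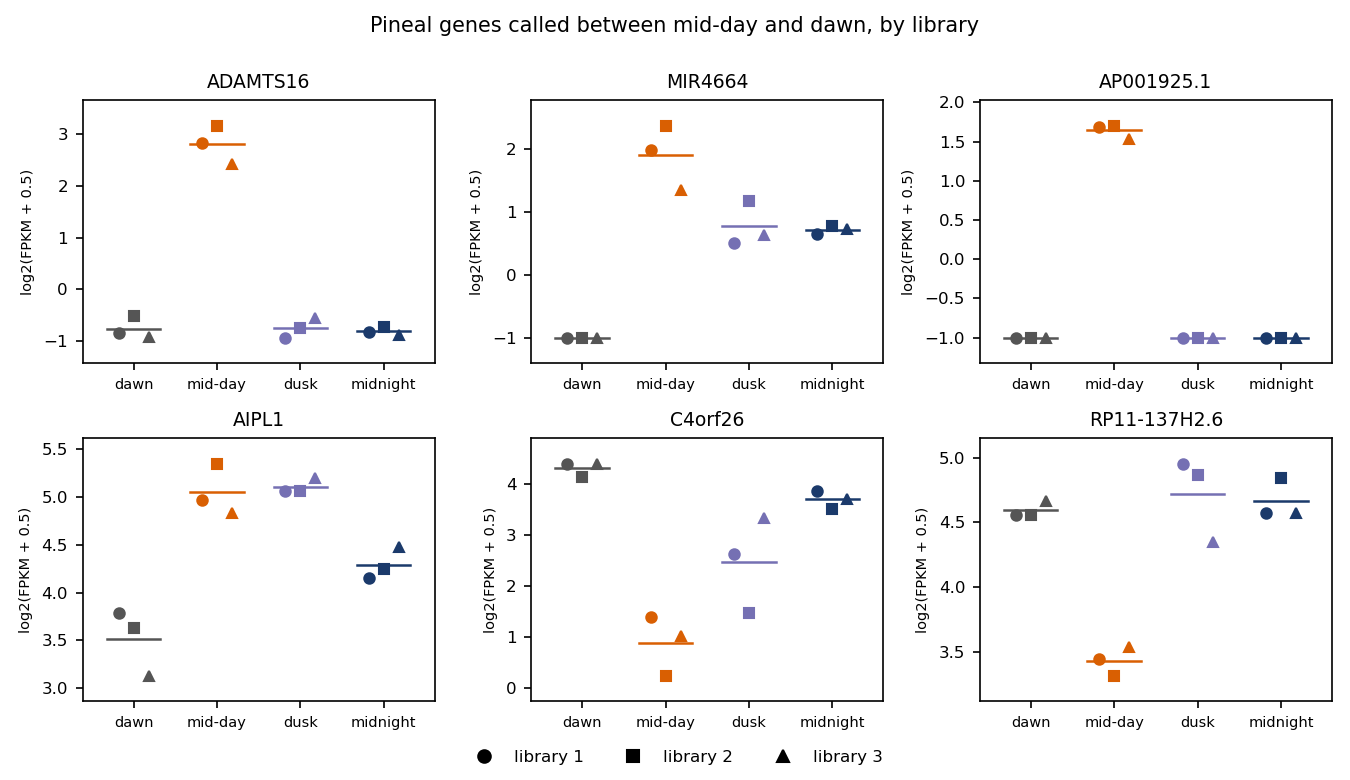
Level of the 6 called genes in the 12 pineal libraries, as log2(FPKM + 0.5), by time of day, with 1 point per library and a line at the mean of 3. ADAMTS16 and AP001925.1 stand above the other times at mid-day alone, RP11-137H2.6 stands below them at mid-day, AIPL1 is high at mid-day and dusk, and C4orf26 is highest at dawn.

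Several genes just outside the threshold kept wholly separate groups. CCKBR, the gastrin and cholecystokinin B receptor, was at 8.55, 6.03 and 6.72 FPKM at mid-day against 40.6, 35.7 and 57.3 at dawn (log2 -2.55 ± 0.36, SE, limma adjusted p = 0.0541). TGFBR3, which presents ligands of the TGF-beta family to their receptors, was at 24.7, 22.6 and 24.7 FPKM at mid-day against 54.4, 45.6 and 46.6 at dawn (log2 -1.01, limma adjusted p = 0.0541). NTNG2, a membrane-anchored netrin, was at 43.2, 39.8 and 37.9 FPKM at mid-day against 20.3, 21.7 and 22.4 at dawn (log2 0.89, limma adjusted p = 0.0541). In all 3 the mid-day libraries lay close together, and for CCKBR the dawn libraries spread more. GUCY1A3, a subunit of the soluble guanylate cyclase that senses nitric oxide, was at 32.8, 36.1 and 35.9 FPKM at mid-day against 14.5, 15.2 and 16.7 at dawn (log2 1.15, limma adjusted p = 0.0727). CADM1, an immunoglobulin-type adhesion molecule, was at 36.7, 39.9 and 31.6 against 16.3, 18.1 and 13.6 (mid-day against dawn, log2 1.15, limma adjusted p = 0.0727).

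The largest differences were ranked among genes with separate groups, a mean of at least 2 FPKM and an unadjusted p under 0.05. None of the following was called. CDT1, a licensing factor of DNA replication, was at 24.9, 12.8 and 21.3 FPKM at mid-day against 2.49, 1.49 and 1.63 at dawn (log2 3.06, limma adjusted p = 0.139). LRTM1, whose product has leucine-rich repeats, was at 135, 36.5 and 45.4 FPKM at mid-day against 15.2, 7.65 and 9.78 at dawn (log2 2.48). SFRP2, a secreted inhibitor of Wnt signalling, was at 31.5, 31.0 and 19.9 FPKM at mid-day against 6.12, 8.58 and 4.61 at dawn (log2 2.02, limma adjusted p = 0.111). ATP2A3, a calcium pump of the endoplasmic reticulum, had its log2 difference of 3.21 mostly from mid-day 3, at 38.2 FPKM, with 7.16 and 7.15 in the other mid-day libraries and 0.621 to 1.77 at dawn. The monocarboxylate transporter gene SLC5A8 (log2 2.66) went the other way, at 11.6 and 6.17 FPKM in mid-day 1 and 2, 0.357 in mid-day 3 and no more than 0.238 at dawn. The pseudogene RPS15AP24 (log2 2.53), the chemokine CCL26 (2.42), the protease inhibitor SLPI (2.09), the meiotic gene MEI4 (1.99) and the transport ATPase ATP13A5 (1.96) had separate groups too.

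GNLY, granulysin of cytotoxic lymphocytes, was at 8.96, 7.42 and 2.85 FPKM at mid-day against 0.807, 0.506 and 1.28 at dawn (log2 2.25, limma adjusted p = 0.111). Blood markers summed to 53.0, 28.9 and 9.09 FPKM at mid-day against 16.4, 18 and 2.36 at dawn. Of that list 2 of 10 genes were tested, HBA1 and HBD were at 0 in all 6 libraries, and its part in the GNLY difference was not tested.

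Among the genes lower at mid-day by the same rule, the transmembrane protein TMEM130 was at 6.14, 7.66 and 2.19 FPKM at mid-day against 16.6, 24.7 and 47.9 at dawn (log2 -2.39, limma adjusted p = 0.115). RNF152, a ubiquitin ligase of lysosomes, was at 9.75, 26.7 and 35.9 FPKM at mid-day against 139, 71.7 and 129 at dawn (log2 -2.34, limma adjusted p = 0.118). Both had separate groups but spread several-fold within mid-day. DOCK2, an activator of Rac in white blood cells, was at 1.42 to 2.93 FPKM at mid-day and 4.78 to 26 at dawn (log2 -2.56). EXTL1, a glycosyltransferase of heparan sulphate synthesis, was at 1.15 to 3.34 FPKM at mid-day and 7.69 to 20 at dawn (log2 -2.29). The slow-muscle troponin gene TNNI1 (log2 -2.34), the orphan receptor gene GPR158 (-2.27) and the antisense transcript TRAPPC12-AS1 (-2.87) completed the named genes with ZSCAN4 and MYOD1, described below. TRAJ47, a T-cell receptor joining segment, was listed at 0 at mid-day and had 12 reads at dawn. Counting was not stated to use strand, so TRAPPC12-AS1 and its partner gene cannot be told apart.

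The deposited comparison of the authors gave more calls from the same libraries. Of 18641 genes given an adjusted p in the authors' deposited table, 285 had it under 0.05 (1.53%), 115 higher at mid-day (0.617%) and 170 lower (0.912%). Of these 264 were tested by limma and 4 were also called by it, ADAMTS16, AIPL1, C4orf26 and RP11-137H2.6. By the authors' deposited table ADAMTS16 had an adjusted p of 7.64e-32, CCKBR of 6.67e-19, CDT1 of 3.56e-16, GUCY1A3 of 2.58e-13, TGFBR3 of 7.23e-09, SFRP2 of 2.35e-08 and CADM1 of 1.64e-07. ADAMTSL1 (7.42e-15), the metabotropic glutamate receptor gene GRM7 (8.44e-07) and the giant muscle protein gene TTN (2.99e-06) were also called in the authors' deposited table, where limma gave adjusted p = 0.148, 0.168 and 0.277. The genes named from that table were picked after their values were seen.

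Genes of phototransduction and of the outer segment were tested as 7 lists of 55 genes, 48 of which passed the filter. AIPL1 was the 1 called. All mid-day libraries lay above all dawn libraries in 9 (18.8%, against 10.1% of all genes) and below in 6 (12.5%, against 5.97%). The median log2 difference was 0.26, against 0.04 for all genes. In whole glands, fewer cells of a type and less RNA per cell cannot be told apart. The lists differed among themselves, and the guanylate cyclase group stood at one end, with 5 tested members all positive and a median log2 difference of 1.57.

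GUCA1A, a calcium-sensing activator of retinal guanylate cyclase, was at 142, 125 and 220 FPKM at mid-day against 52.0, 57.7 and 36.1 at dawn. The lowest mid-day library stood well above the highest dawn library. Its log2 difference was 1.72 ± 0.28 (SE, limma adjusted p = 0.094), and it was called without mid-day 3 (0.0473) and in the authors' deposited table (adjusted p = 2.86e-06). Dusk libraries were at 145 to 238 FPKM and midnight libraries at 83.8 to 140. GUCY2D, the cyclase itself, was at 6.42, 5.06 and 2.55 FPKM at mid-day against 1.68, 1.06 and 0.809 at dawn (log2 1.57, limma adjusted p = 0.287). GUCA1C, a further activator, was at 239, 213 and 223 FPKM at mid-day against 155, 209 and 184 at dawn (log2 0.31), separate by a narrow margin. GUCA1B had the largest fitted log2 difference of the list, 3.60 ± 1.30 (SE), but overlapping groups, at 16.7, 27.2 and 263 FPKM at mid-day against 24.5, 2.19 and 0.55 at dawn. RD3, which restrains the cyclase, overlapped too (log2 0.48).

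Among the shut-off proteins the balance was also positive, with 5 of 6 positive and a median log2 difference of 0.94. PDC, phosducin, which binds the beta and gamma subunits of transducin, was at 483, 324 and 298 FPKM at mid-day against 213, 117 and 38.5 at dawn (log2 1.86 ± 0.48, SE, limma adjusted p = 0.18). ARR3, cone arrestin, was at 50.3, 68.6 and 62.6 FPKM at mid-day against 25.9, 36.4 and 7.79 at dawn (log2 1.59, limma adjusted p = 0.202). In both genes dawn 3 was the lowest of the 6 libraries. RCVRN, recoverin, which inhibits rhodopsin kinase, lay the other way by little, at 111 to 143 FPKM at mid-day and 148 to 153 at dawn (log2 -0.20).

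Of the 6 tested genes of the PDE6 list, which includes the chaperone AIPL1, 3 had positive and 3 negative differences. PDE6H, the cone inhibitory subunit, was at 368, 438 and 513 FPKM at mid-day against 595, 677 and 761 at dawn (log2 -0.63, limma adjusted p = 0.26; authors' deposited table, adjusted p = 0.0427). PDE6B, the rod catalytic beta subunit, was at 4.27, 2.72 and 3.89 FPKM at mid-day against 6.49, 6.01 and 4.47 at dawn (log2 -0.58, limma adjusted p = 0.28). Both were separate and below. The other subunits overlapped between times, with log2 differences of 1.02 for PDE6G, the rod inhibitory subunit, 0.15 for PDE6D and -0.62 for PDE6C, the cone catalytic subunit. CNGA3, a subunit of the cone cation channel, was at 0.882, 0.322 and 1.3 FPKM at mid-day against 2.38, 2.7 and 2.5 at dawn (log2 -1.25, limma adjusted p = 0.202; authors' deposited table, adjusted p = 0.0378). RGS9, which speeds the shut-off of transducin, was at 12.5 to 18.5 FPKM at mid-day and 21.5 to 23.4 at dawn (log2 -0.57).

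The opsins gave no call. OPN1SW, the short-wavelength cone opsin, ranged from 81.4 to 432 FPKM at mid-day and from 4.68 to 157 at dawn (log2 2.45 ± 1.18, SE, limma adjusted p = 0.396), so its groups overlapped. RGR, a retinal-isomerising opsin, was at 1.82 to 2.53 FPKM at mid-day and 3.17 to 6.16 at dawn (log2 -1.01, limma adjusted p = 0.192). Of the outer segment genes, PRCD, a disc membrane protein, was at 5.52, 3.27 and 4.85 FPKM at mid-day against 2.34, 2.17 and 2.11 at dawn (log2 0.87, limma adjusted p = 0.144; authors' deposited table, adjusted p = 0.0222). FSCN2, an actin-bundling protein, was at 5.72 to 6.25 FPKM at mid-day and 2.32 to 4.21 at dawn (log2 0.95), and TULP1, a transport protein of the outer segment, at 82.8 to 103 and 62.1 to 79.2 (mid-day and dawn, log2 0.33). The other 9 outer segment genes overlapped. Of the transcription factors that direct photoreceptor and pineal genes, 0 of 14 tested were called, against 0.0314% of all genes. PAX6 alone had separate groups, at 6.42 to 8.91 FPKM at mid-day and 10.5 to 12.6 at dawn (log2 -0.58, limma adjusted p = 0.232). That was 1 of 14 separate and below, against 5.97% of all genes.

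**Figure D2:**
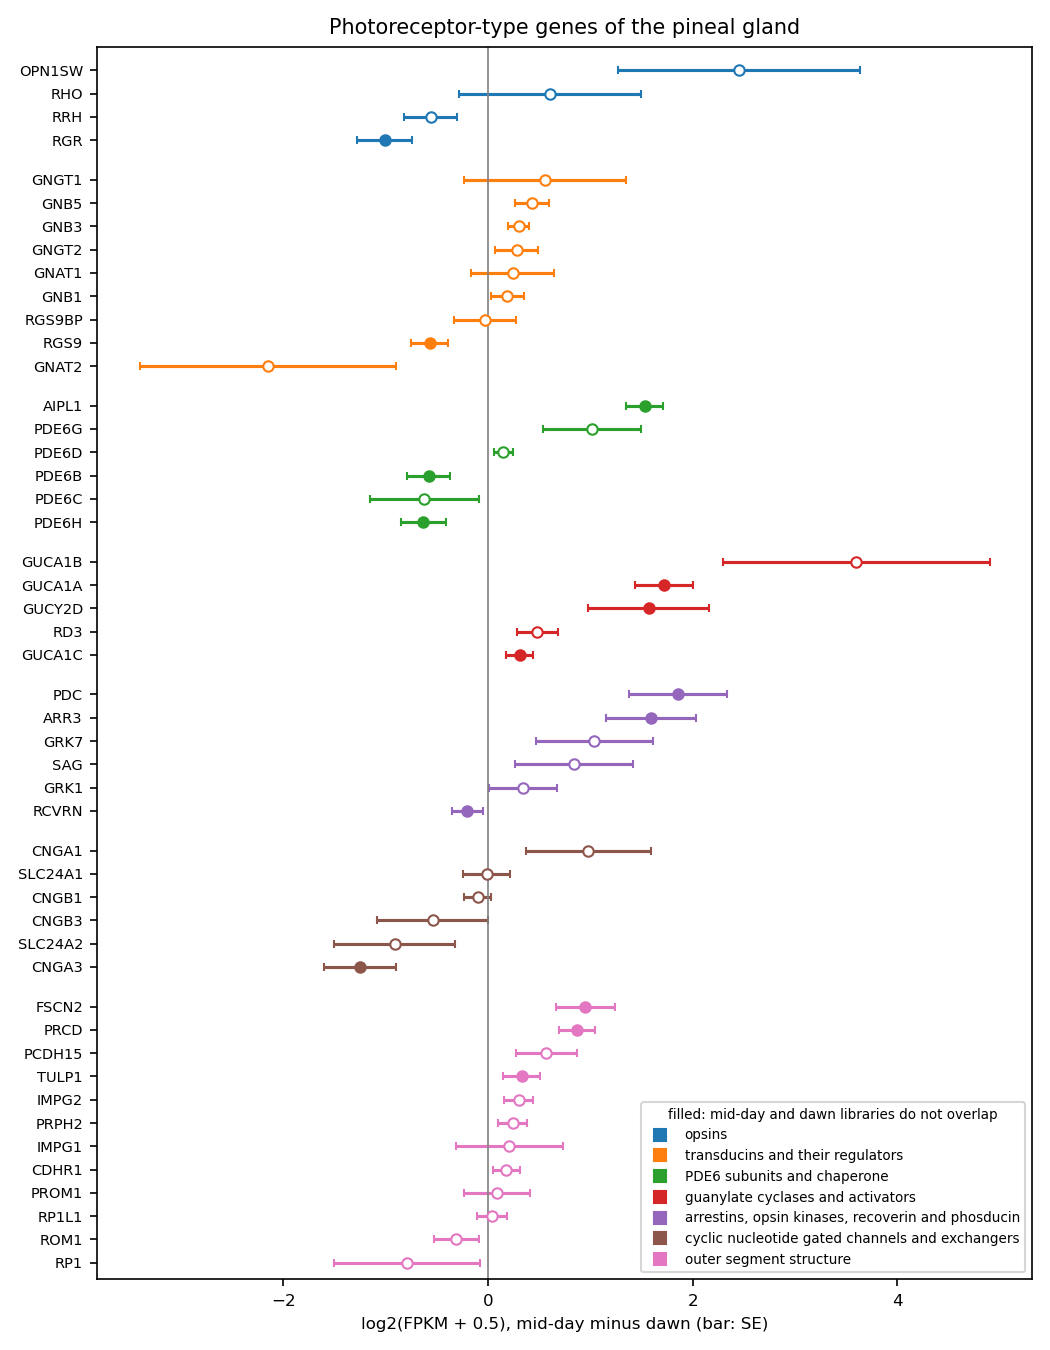
Log2 difference in FPKM + 0.5, mid-day minus dawn, for the 48 tested genes of phototransduction and the outer segment, with the limma SE as bars, grouped by list. Filled points mark genes whose mid-day and dawn libraries do not overlap; the guanylate cyclase list runs from 0.31 to 3.60, and PDE6B, PDE6H, CNGA3, RGR, RGS9 and RCVRN are the filled points below 0.

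The ADAMTS family was the other list with a call. Of 15 tested members of 24, mid-day libraries all lay above dawn in 6 (against 10.1% of all genes) and below in 1 (against 5.97%). The median log2 difference was 0.48. ADAMTS16 gave the one call. ADAMTSL3 and ADAMTSL1, secreted relatives without a protease domain, followed. ADAMTSL1 was at 4.94, 4.95 and 4.43 FPKM at mid-day against 1.47, 1.85 and 1.37 at dawn (log2 1.36 ± 0.29, SE, limma adjusted p = 0.148). ADAMTSL3 was at 6.22, 2.76 and 2.68 FPKM at mid-day against 1.44, 0.782 and 0.522 at dawn (log2 1.59, limma adjusted p = 0.244; authors' deposited table, adjusted p = 0.0049). ADAMTSL5 (log2 0.72), ADAMTS15 (0.60) and ADAMTSL4 (0.48) were also separate and above, all near 1 to 2 FPKM or lower, and ADAMTS13, the von Willebrand factor protease, was separate and below (-0.49).

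Of the genes of melatonin synthesis, 0 of 13 tested were called. AANAT, which acetylates serotonin, was at 61.6, 58.5 and 59.2 FPKM at mid-day against 52.2, 47.1 and 61.7 at dawn (log2 0.16 ± 0.13, SE, limma adjusted p = 0.603). TPH1, the hydroxylase that starts the pathway, was at 515, 502 and 817 FPKM at mid-day against 431, 474 and 635 at dawn (log2 0.24, limma adjusted p = 0.697). ASMT, the methyltransferase that ends it, was at 105, 89.8 and 166 FPKM at mid-day against 148, 128 and 144 at dawn (log2 -0.27, limma adjusted p = 0.615). For these 3 enzymes the groups overlapped. DDC, which decarboxylates 5-hydroxytryptophan to serotonin, was at 110, 65.3 and 61.8 FPKM at mid-day against 122, 119 and 181 at dawn, separate (log2 -0.85, limma adjusted p = 0.216). SPR, the last enzyme of tetrahydrobiopterin synthesis, was separate the other way, at 14.4 to 20.6 FPKM at mid-day and 9.93 to 11.6 at dawn (log2 0.59, limma adjusted p = 0.211). These were 1 of 13 in each direction, against 10.1% of all genes above and 5.97% below. MAT2A, which makes the methyl donor used by ASMT, depended on a single library, as given below.

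The molecular clock likewise gave no call among 25 tested genes of 27, the lowest limma adjusted p being 0.253. The median log2 difference was 0.02. NPAS2, an activator paralogous to CLOCK, was at 3.64, 3.87 and 4.02 FPKM at mid-day against 5.74, 5.23 and 5.84 at dawn (log2 -0.49 ± 0.16, SE, limma adjusted p = 0.253; authors' deposited table, adjusted p = 0.0101). It alone was separate and below, and TIMELESS alone separate and above (log2 0.48), 4.0% of the list each way against 10.1% of all genes above and 5.97% below. PER1, PER2, PER3, CRY1 and CRY2, the feedback repressors, had log2 differences from -0.32 to 0.09, and ARNTL and CLOCK of -0.16 and 0.03.

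Signalling genes through which the nerve input acts had 25 tested members and 0 calls, against 0.0314% of all genes called. The cyclic AMP coactivators CRTC1 (8.9 to 12.6 FPKM at mid-day and 5.91 to 7.31 at dawn, log2 0.65, limma adjusted p = 0.22) and CRTC3 (log2 0.30) were separate and above, with the regulatory subunit PRKAR2A (0.20). The protein kinase A subunits PRKACB (log2 -0.36) and PRKAR1A (-0.27) were separate and below. These were 3 of 25 above and 2 of 25 below, against 10.1% and 5.97% of all genes. The list median was -0.17 and became 0.11 without mid-day 3. Of the amine receptors and enzymes, 0 of 8 tested were called. In that list 1 gene was separate and above and 2 were below, to be set against the same shares. HTR1E, a serotonin receptor, was at 7.19, 3.76 and 16.5 FPKM at mid-day against 27.3, 18.3 and 37.4 at dawn (log2 -1.72 ± 0.42, SE, limma adjusted p = 0.171). DRD2, the D2 dopamine receptor, was at 2.61, 2.13 and 4.26 FPKM at mid-day against 5.04, 5.47 and 9.89 at dawn (log2 -1.05, limma adjusted p = 0.234). MAOA, which breaks down serotonin, was at 6.05 to 11.0 FPKM at mid-day and 3.85 to 5.21 at dawn (log2 0.81, limma adjusted p = 0.192). Mid-day 3 was the highest mid-day library for both receptors and the lowest for MAOA.

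Mid-day 3 stood apart from the other mid-day libraries in a number of genes, of which those below were named because it does. Over all genes compared, the chi-square per gene was 35.8 between mid-day 1 and 2. It was 33.2 between mid-day 1 and 3 and 36.3 between mid-day 2 and 3, so by this measure mid-day 3 was not apart. SIK1, a kinase that restrains the CRTC coactivators, was at 1.7, 1.32 and 26.9 FPKM at mid-day against 15.4, 16.9 and 37.0 at dawn. It was at 1.06 to 1.55 FPKM at dusk and 23.2 to 57.2 at midnight. Mid-day 1 and 2 were thus in or near the dusk range and mid-day 3 within the dawn and midnight ranges. FAM163A, a neuronal membrane protein, was at 3.0, 1.69 and 37.9 FPKM at mid-day against 37.4, 18.6 and 52.2 at dawn. MAT2A was at 36.7, 33.3 and 175 FPKM at mid-day against 75.0, 83.7 and 146 at dawn. In both genes mid-day 3 was inside or above the dawn range, and mid-day 1 and 2 were below it. CREM, whose inducible form represses cyclic AMP responses, was at 9.31, 8.57 and 24.1 FPKM at mid-day against 17.2, 19.0 and 30.6 at dawn. PDE4D, which degrades cyclic AMP, was at 13.1, 9.52 and 31.1 FPKM at mid-day against 24, 20.5 and 50.5 at dawn. In other genes mid-day 3 was the highest mid-day library but still below every dawn library. This held for SLC6A17, an amino acid transporter of synaptic vesicles, at 6.27, 5.99 and 27.3 FPKM at mid-day against 32.7, 39.9 and 68.7 at dawn. It held for the muscle transcription factor MYOD1, at 0.253, 0.469 and 5.9 against 9.17, 17.3 and 17.4, and in the zinc-finger gene ZSCAN4, at 0.3, 0.758 and 7.69 against 26, 41.9 and 10.2 (mid-day against dawn). AANAT showed no such gap between mid-day libraries.

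Without mid-day 3, limma called 186 genes (0.973%), 78 higher (0.408%) and 108 lower (0.565%), and all 6 calls made with it were among them. SIK1 then had an adjusted p of 0.00989, MYOD1 of 0.00704, FAM163A of 0.0158, ZSCAN4 of 0.0195, SLC6A17 of 0.0206, HTR1E of 0.0175, MAT2A of 0.0311 and BDNF, a neurotrophin, of 0.0442 by limma, all lower at mid-day. CREM (0.0745) and PDE4D (0.115) were not called. Among those higher were LRRC39, a leucine-rich repeat protein, at 82.6, 79.8 and 31.3 FPKM at mid-day against 20.7, 15.8 and 13.3 at dawn (limma adjusted p = 0.0167 without mid-day 3) and RGS20, a regulator of G-protein signalling, at 31.8, 19.0 and 14.1 against 7.66, 9.96 and 5.83 (0.0311). The genes named here were picked from the calls made without mid-day 3 or because mid-day 3 lies apart in them. Their adjusted p values from this fit are therefore no separate support. In mid-day 3 itself, 103 of the 186 lay beyond the dawn range in the same direction, 55 within it and 28 beyond it in the other direction. With mid-day 3 left out and the XIST indicator in the fit 37 of the 186 kept an adjusted p under 0.05. Of the 186, 35 were also called in the authors' deposited table, 18.8% of the first and 12.3% of the second. Mid-day 3 held 13.88 M reads and had the lowest quality weight of the 12 pineal libraries by limma, 0.595. That weight is taken from how far a library departs from its group in these same values, so it is no separate measure of quality. The count of calls with these weights in the fit is given below. The part of read number and library quality in the result was not tested.

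**Figure D3:**
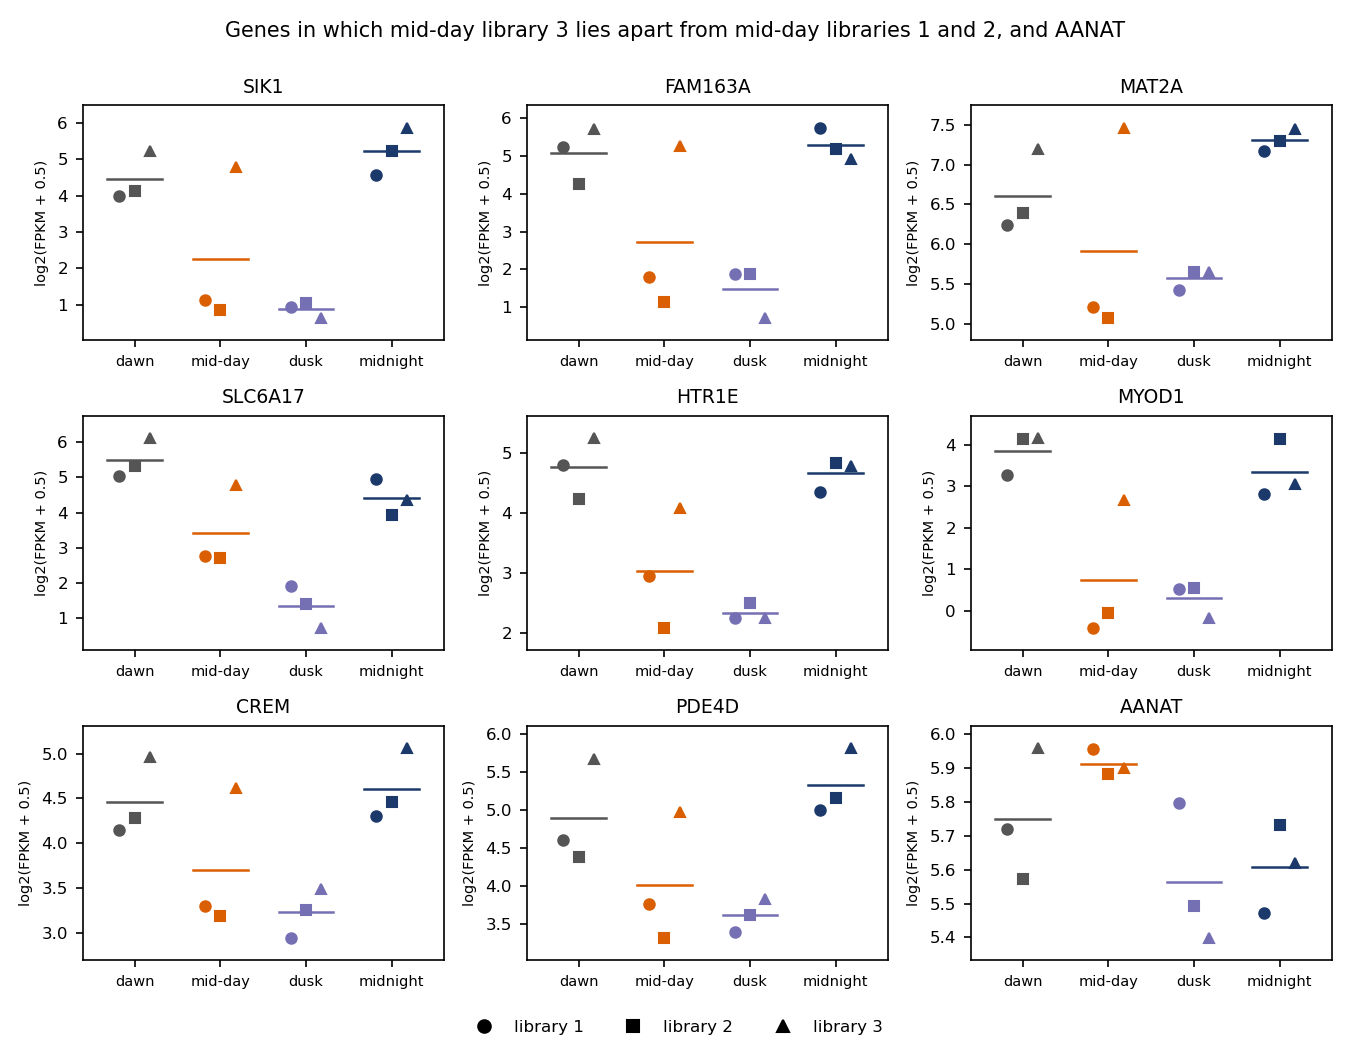
Level of 8 genes in which mid-day library 3 lies apart from mid-day libraries 1 and 2, and of AANAT, in the 12 pineal libraries, as log2(FPKM + 0.5), with 1 point per library and a line at the mean of 3. In SIK1 mid-day 1 and 2, at 1.7 and 1.32 FPKM, sit with the dusk libraries, and mid-day 3, at 26.9, sits with dawn and midnight; AANAT, on an axis that spans less than 1 log2 unit, shows no such split.

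Immediate early genes, which rise within minutes of a stimulus, had 0 called of 17 tested and 0 with separate groups. Their median log2 difference was -0.37, and -0.72 without mid-day 3, with FOS at 1.64, 4.26 and 19.9 FPKM at mid-day against 4.8, 11.5 and 16.9 at dawn (log2 -0.81) and NR4A3, a nuclear receptor, at 4.56, 2.56 and 11.3 against 7.92, 9.05 and 16.9 (mid-day against dawn, log2 -0.98). Mid-day 3 was again the highest mid-day library. The other lists gave no call, and their counts of separate genes stand against 10.1% above and 5.97% below over all genes. The unfolded protein response had 2 of 15 separate and below, the chaperone HSPA5 at 32.7 to 43.8 FPKM at mid-day and 43.9 to 65.5 at dawn (log2 -0.50) and its cochaperone DNAJB9 at 26.8 to 27.8 and 30.7 to 51.6 (log2 -0.65, mid-day first). Interferon response genes had 3 of 16 separate and above, OAS3 (log2 0.59), IFI44 (0.62) and IFIT1 (0.41). Cytosolic ribosome genes had 5 of 22 separate and above, led by RPL23 (0.82), and a list median of 0.13. Cholesterol synthesis had 2 of 18 above, oxidative phosphorylation 1 of 22 above and 1 below, heat shock proteins 1 of 13 above, and glycolysis and glucocorticoid response none of 19 and 10. Of synaptic genes 3 of 17 were separate and above, among them CPLX4, a complexin of ribbon synapses, at 9.07, 36.5 and 26 FPKM at mid-day against 5.42, 8.43 and 8.52 at dawn (log2 1.43, limma adjusted p = 0.29; authors' deposited table, adjusted p = 0.0349).

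Of the markers of other cell types none was called, and the summed levels of oligodendrocyte and choroid plexus markers varied several-fold between mid-day glands. Oligodendrocyte markers summed to 46.4, 197 and 72.9 FPKM at mid-day against 59.3, 471 and 176 at dawn, with a median log2 difference of -1.13 over 12 genes and 0 with separate groups. Choroid plexus markers summed to 476, 1940 and 1040 FPKM at mid-day against 1120, 479 and 464 at dawn, with a median of 0.67 over 9 genes and 0 separate. Astrocyte markers had a median of -0.32, which was 0.05 without mid-day 3. Over all genes 10.1% were separate and above and 5.97% separate and below, against which the marker counts stand. Microglia markers had 1 of 13 separate and below, AIF1, and endothelial markers 2 of 11 separate and above, KDR and VWF. Fibroblast and mural markers had 1 of 14 separate and above. The 12 tested pinealocyte markers had 1 above and 2 below, with summed levels of 1980, 1680 and 2160 FPKM at mid-day against 1570, 1460 and 1480 at dawn. Of central neuron markers NEFL, a neurofilament, was at 6.46, 22.8 and 6.27 FPKM at mid-day against 40.3, 26.5 and 65.0 at dawn (log2 -2.01, limma adjusted p = 0.175; authors' deposited table, adjusted p = 0.0309), with 1 of 10 separate. Rod markers had 0 of 6 separate, and of 10 pigment epithelium markers 5 passed the filter, with RGR separate. The part of these cell types in the gene differences was not tested.

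Mitochondrial genes held the largest fitted difference of all, with levels that also split within mid-day and within dusk. MT-CO3, a subunit of cytochrome c oxidase, was at 409, 16.0 and 367 FPKM at mid-day against 0.393, 0.312 and 0.39 at dawn. MT-ND3, a subunit of complex I, was at 421, 270 and 409 FPKM at mid-day against 2.45, 4.94 and 3.54 at dawn. At dusk MT-CO3 was at 403 and 361 FPKM in dusk 1 and 2 and 2.18 in dusk 3, and at midnight it was at 0.437 to 2.59. The libraries thus fell into a high level, a low level near 0, and mid-day 2 between them. MT-ND4L was at 355, 0.279 and 345 FPKM at mid-day against 0.259, 0.0 and 0.773 at dawn, with mid-day 2 at the low level. Retina libraries had the same levels, with MT-CO3 at 370 FPKM in mid-day 2, 355 and 325 in dusk 1 and 2, 15.3 in dawn 2, 11.5 in midnight 3 and 3.71 or less in the other 7. The log2 difference between mid-day and dawn in the pineal gland was 7.29 ± 1.77 for MT-CO3 (SE, limma adjusted p = 0.169) and 6.49 ± 1.53 for MT-ND3 (limma adjusted p = 0.165), against adjusted p = 5.48e-87 for MT-ND3 in the authors' deposited table. MT-ND5 was at 44.8, 33.1 and 48.4 FPKM at mid-day against 5.61, 4.13 and 6.67 at dawn (log2 2.84, limma adjusted p = 0.139). The mitochondrial genes MT-CO2, MT-ND2 and MT-ND6 were listed at 0 in all 6 libraries. Reads were assigned to human gene models, and the part of this assignment in the levels was not tested. These genes were chosen after their values were seen.

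**Figure D4:**
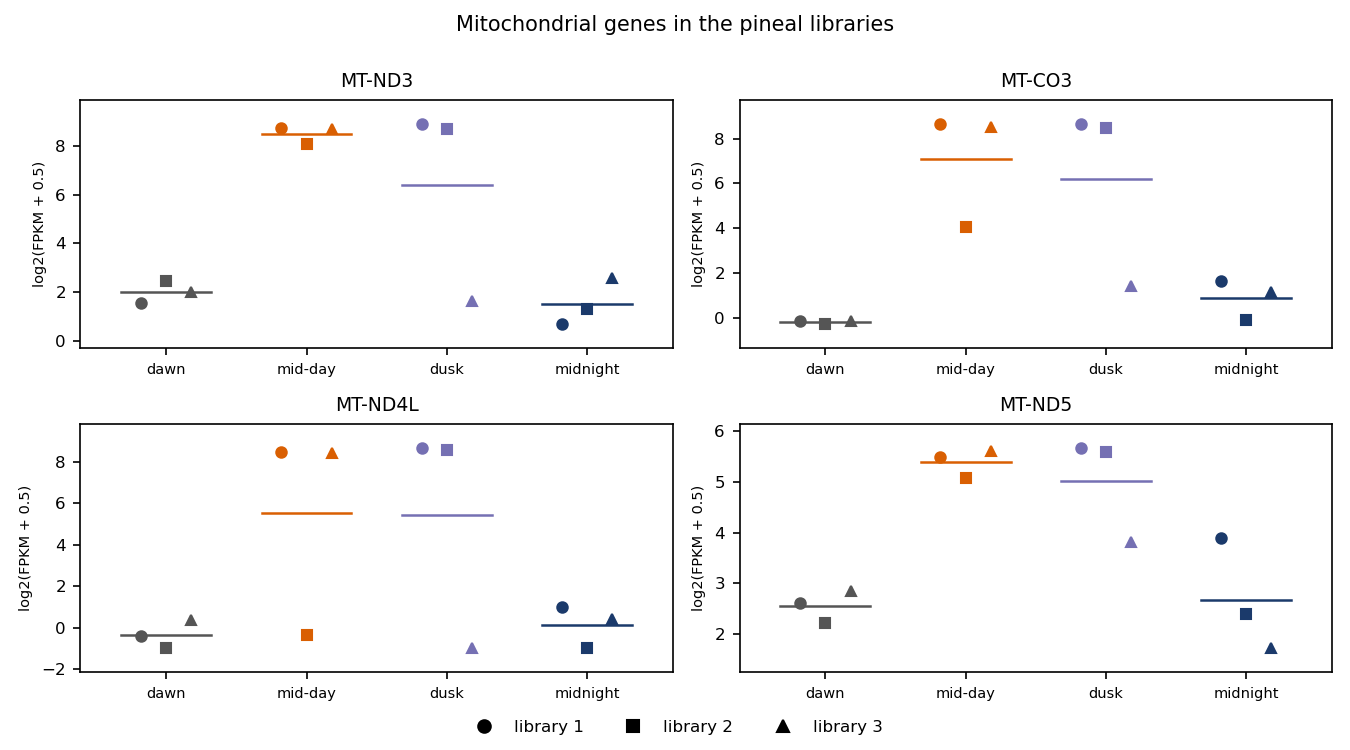
Level of 4 mitochondrial genes in the 12 pineal libraries, as log2(FPKM + 0.5), by time of day, with 1 point per library and a line at the mean of 3. Mid-day 1 and 3 and dusk 1 and 2 form the high level in MT-CO3, at 361 to 409 FPKM; mid-day 2 lies between the levels in MT-CO3, at 16.0, and at the low level in MT-ND4L, at 0.279.

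The retina, taken at the same times, was used to ask whether the differences were shared. Genes near the floor in the retina, such as ADAMTS16 and CCKBR, can answer this only in part. Sex by XIST and EIF1AY was also spread over the times differently in each tissue, as given above. The retina alone had 0 calls between mid-day and dawn of 24740 genes by limma (0%), with 1353 at an unadjusted p under 0.05. For the retina the authors' deposited table called 120 of the 14106 genes given an adjusted p (0.851%). The difference between tissues was called for 8 of 24740 genes (0.0323%), 4 more positive in the pineal gland and 4 more negative. AIPL1 differed by a log2 of 1.53 between mid-day and dawn in the pineal gland and by -0.15 in the retina, where it was at 239 to 296 FPKM at mid-day and 279 to 327 at dawn (difference of differences 1.68 ± 0.21, SE, limma adjusted p = 0.00195). ADAMTS16 in the retina was at 0.145 to 0.452 FPKM at mid-day and 0.0479 to 0.123 at dawn, with mid-day also above dawn. Its difference of differences was 3.19 ± 0.43 (limma adjusted p = 0.00538). These retina values lie below the 0.5 added before the logarithm, so the size of that difference depends on this constant. With voom on recovered reads the interaction of ADAMTS16 was not called (adjusted p = 0.427). CADM1 was at 67.0, 79.3 and 83.3 FPKM at mid-day in the retina against 88.7, 83.4 and 90.0 at dawn, and was called between tissues (1.35 ± 0.20, limma adjusted p = 0.0143) though not in the pineal gland alone. CCKBR was at 0.579 to 1.46 FPKM in the 6 retina libraries, and its difference of differences was -2.74 ± 0.45 (limma adjusted p = 0.0303). Beside those called, TYRO3, a receptor tyrosine kinase, was at 6.77, 6.12 and 13.1 FPKM at mid-day against 20.8, 19.6 and 40.1 at dawn in the pineal gland and at 2.23 to 4.54 in the retina (difference of differences -2.02, limma adjusted p = 0.0582).

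AIPL1, ADAMTS16 and MIR4664 kept their interaction calls without each of the 12 libraries in turn. The other 5 lost theirs without at least 3 of them. CADM1 lost it without pineal mid-day 2, pineal dawn 3 or retina mid-day 1 (limma adjusted p up to 0.0781), and the others up to 0.126. The count of interaction calls was 122 without pineal mid-day 3, 34 without pineal dawn 1 and 14 without pineal dawn 2. It was 3 without pineal mid-day 2, pineal dawn 3 or retina mid-day 1, and 5 without retina mid-day 2 or retina dawn 1. Retina dawn 2 and retina mid-day 1 had 44.8% and 45.7% of genes at 0, as the pineal libraries did. Without both, 16 genes were called; CCKBR and C4orf26 were not among them (limma adjusted p = 0.127 for each), and the other 6 were. With the XIST indicator C4orf26 (limma adjusted p = 0.0634) and AL133373.1 (0.0621) lost the call, and the other 6 kept it (0.00223 to 0.0293).

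**Figure D5:**
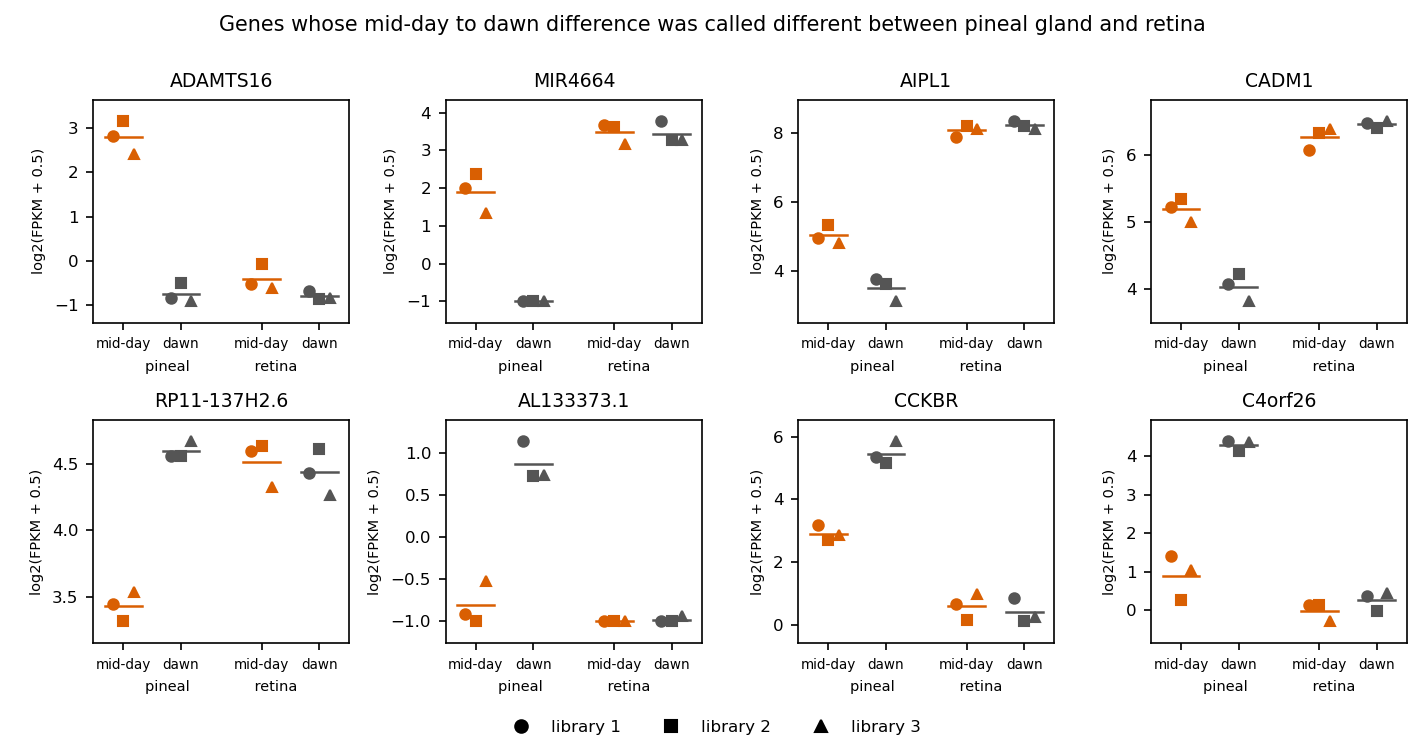
Level in pineal gland and retina at mid-day and dawn, as log2(FPKM + 0.5), of the 8 genes whose mid-day minus dawn difference was called different between the tissues, with 1 point per library and a line at the mean of 3. AIPL1 and CADM1 are higher in retina than in the pineal gland at both times and differ between times in the pineal gland; CCKBR and C4orf26 are highest at pineal dawn, and CCKBR has pineal mid-day between pineal dawn and retina.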

How the data were processed

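FPKM values for 50308 genes in 26 libraries of total RNA were deposited by the authors, with tables of the contrasts they ran, which per the file headers hold a mean normalised count (a signal), a log2 fold change, its error, a test score and p-values. The submitters' processing notes name DESeq2, featureCounts, Subread, STAR 2.3.0e and FastQC, and the human build hg19. The annotation, filters and strand setting are not given in the sources used here. Reads of macaque RNA thus went to human gene models, and paralogs, pseudogenes and overlapping genes are uncertain. Of the 50308 names, 16438 (32.7%) were found in RefSeq of the macaque assembly T2T-MMU8v2.0, used for names only.

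Genes reaching an FPKM of 1 in 3 or more of the 12 pineal libraries were fitted as log2(FPKM + 0.5), which understates changes of low genes, with limma 3.58.1 (R 4.3.3), 4 times, a mean-variance trend and no covariate, two-sided, with Benjamini-Hochberg adjustment and a call at adjusted p under 0.05. The difference between tissues used 24 libraries with no term for animal, since no label ties the tissues of an animal together. The FPKM steps gave whole reads for 42804 of 42804 genes above 0 (100%, within 0.0001); voom on these reads, with trimmed-mean scaling, was an alternative and called 3 genes. A gene above 0 in a single library has no fixed read number. Floors cover only the counting error of the group at 0. The fits were tested on simulated data. Tables and plots were made in Python 3.11.15.

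The members, the 37 lists, the rules and tests were chosen with earlier results of these data known. Named were all called genes, the 12 largest differences each way with separate groups, unadjusted p under 0.05 and a mean of at least 2 FPKM, up to 4 separate members per list, the 10 smallest interaction p-values and the 10 largest each way among calls without mid-day 3, leaving out clones, small RNAs and mitochondrial genes. Libraries of a group differed by 23.8 to 36.3 in chi-square per gene, beyond sampling noise.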

Additional observations from a re-analysis of the deposited data

Results flagged for a closer look

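The mid-day minus dawn difference itself differed between pineal gland and retina, by the interaction test of limma over 24740 genes, for 8 genes. The difference of differences (pineal gland minus retina, log2) was 2.85 for MIR4664, 1.68 for AIPL1, 3.19 for ADAMTS16 and 1.35 for CADM1. It was -1.24 for RP11-137H2.6, -1.66 for AL133373.1, -2.74 for CCKBR and -3.13 for C4orf26. AL133373.1 rested on 8 reads at pineal mid-day and 131 at pineal dawn. With voom on recovered reads AIPL1 (adjusted p = 0.00248) and CADM1 (0.0146) kept the call and the other 6 did not (0.108 to 0.445). Groups of 3 libraries are too small for a test of single outlying libraries.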

How the results depend on the processing

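Against 6 calls, the pineal comparison gave 12 with no filter and 4 at FPKM of at least 1 in 6 libraries. ADAMTS16 and AP001925.1 were not tested under the latter filter, since only their mid-day libraries reached 1 FPKM. The comparison gave 10 from the 6 mid-day and dawn libraries alone, 3 with voom, 4 with quality weights and 2 with the XIST indicator. It gave 21 with the replicate block, 2 to 186 when 1 library was left out, and, chosen after seeing the data, 100 with voom and 42 with the XIST indicator when mid-day 3 was also left out. Other pseudocounts, rescaling and no trend gave 6 to 8. Against 8, the interaction gave 2 with voom, 6 with the XIST indicator, 16 without both retina libraries, 14 with the replicate block and 3 to 122 when 1 library was left out. Same-numbered mid-day and dawn libraries correlated at -0.02, 0.12 and 0.03 in their deviations from the group mean. Per the labels these times hold different animals, so the numbers do not pair animals between them. What else the numbers may share was not tested by these correlations. Called list members numbered 2, and 6 without mid-day 3. Of 2160 gene values under alternatives, 2068 kept sign and side, 30 lost and 61 gained a call, and 1 changed sign, XIST at -0.04 without mid-day 3 with its own indicator in the fit, which that indicator absorbs. The causes of the others were not tested.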
